A study of Mus musculus with 10 samples.

Results

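Serpina3n, Lcn2, Lyz2 and 7 macrophage genes (Tyrobp, C1qa, C1qb, Aif1, Cd68, Csf1r and Cx3cr1) were followed across mouse motor neurons of 3 origins. The 10 genes were listed by name, and the list was selected on the measured levels of Serpina3n and Lyz2, which were high in the induced cells. All probes carrying their symbols in the platform annotation were taken: 12 probes for 8 of the 10 genes, among 25697 probes and 16593 named genes in all. No probe carried the name Cd68 or Csf1r, and these genes are not analysed here. A probe counted as detected at a detection p under 0.01, and a gene was tested where this held on at least 2 arrays, which left 6 members (Serpina3n, Lyz2, Tyrobp, C1qb, Aif1 and Cx3cr1) among 9679 features.

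The induced cells were embryonic fibroblasts of C57BL/6 background reprogrammed by overexpressing 10 transcription factors that are not named. The ES-derived cells were differentiated from V6.5, which is 1 mouse embryonic stem (ES) cell line. The embryonic cells were dissected from the spinal cord of C57BL/6 embryos of stage E13.5. All cells carried the Hb9::GFP transgene, in which the promoter of the motor neuron gene Mnx1 (Hb9) drives green fluorescent protein, and all were sorted by fluorescence into GFP-high and GFP-medium fractions. Induced cells gave 2 arrays (1 per fraction), ES-derived cells 4 and embryonic cells 4 (2 per fraction each), all on Illumina MouseRef-8 after double amplification of the RNA. Whether numbered arrays came from different animals or cultures is not stated in the labels, and the p-values therefore cover only array-to-array spread, which may be technical.

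Serpina3n encodes a secreted inhibitor of serine proteases, and Lcn2 encodes lipocalin 2, which binds iron-carrying siderophores; both are known as acute-phase genes and as genes that reactive astrocytes switch on. Lyz2 encodes the lysozyme of macrophages and granulocytes, and the remaining genes on the list are standard markers of macrophages and of microglia, the resident macrophages of the central nervous system. Neurons are not the usual source of the macrophage transcripts, and embryonic spinal cord contains microglia.

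Of the 10 arrays, 3 were dim. ES-derived GFP-high replicate 1 had a mean deposited intensity of 3.16 and 2095 detected probes, embryonic GFP-medium replicate 1 had 51.3 and 6921, and ES-derived GFP-medium replicate 1 had 81.6 and 7264. The other 7 arrays had means of 140 to 577 and 7799 to 11441 detected probes. Values on the dimmest array stand apart: its lowest detected probe lay at 8.68 on the normalized log2 scale, against 4.69 to 5.68 on the other 9 arrays. Results that rest on these arrays are therefore given with and without them. The values of an origin's 4 arrays are listed below as GFP-high and GFP-medium of replicate 1, then GFP-high and GFP-medium of replicate 2. Of 10 motor neuron markers, 3 or 4 were detected on the induced arrays, 2 to 6 on the ES-derived arrays and 4 to 6 on the embryonic arrays. Isl1 was detected on all 10 arrays and Mnx1 on the induced arrays alone. Chat was detected on both induced arrays and Lhx4 on 1, while Isl2, Lhx3, Slc5a7, Ache, Prph and Slc18a3 were detected on 0. Of the ES-derived arrays, Isl2, Slc5a7, Ache and Slc18a3 were each detected on 1, Lhx3 on 2 and Prph on 0. Of the embryonic arrays, Isl2 was detected on 4, Slc5a7, Ache and Prph on 2 each, Lhx3 on 1 and Slc18a3 on 0. Of 6 astrocyte markers, Slc1a2 and Slc1a3 were detected on both induced arrays, Aqp4 on 1 and Aldh1l1 on 0, while Gfap and S100b were detected on 0 of the 10 arrays. Slc1a2 was also detected on 2 ES-derived and 3 embryonic arrays, Slc1a3 on 3 and 4, Aldh1l1 on 1 and 1, and Aqp4 on 0 and 0.

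The start regions of the genes that carry the induced pattern are shown first, from RefSeq on build GRCm38.p6, as 250 bases before and 50 bases from the annotated gene start; 7 of the 10 genes had an entry. The Serpina3n region (chr12:104406458-104406757, plus strand) held 2 matches to the NF-kB motif, shown in capitals. The motif was searched as GGGA and CC with 4 places of any base between them. The match at position -170 from the gene start lay on the opposite strand and that at -43 on the gene's own strand.
Serpina3n: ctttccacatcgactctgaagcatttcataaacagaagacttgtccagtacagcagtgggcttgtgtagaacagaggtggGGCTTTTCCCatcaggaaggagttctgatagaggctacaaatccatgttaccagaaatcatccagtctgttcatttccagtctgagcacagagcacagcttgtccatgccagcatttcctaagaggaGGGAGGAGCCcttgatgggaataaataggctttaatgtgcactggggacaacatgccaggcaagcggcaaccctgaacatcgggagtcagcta
Searched on both strands, this motif occurred in 20.7% of 32851 start regions of the same length. The Serpina3n region held no match to the STAT letters TTCNNNGAA (8.3% of regions), to the PU.1 letters GAGGAA (28.3%) or to the C/EBP letters TTGCNNAA (10.8%).

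Lyz2 has a close paralog, Lyz1, which lies on the same chromosome and was added for comparison because the pair may share probe signal. Their start regions (Lyz2 at chr10:117282223-117282522 and Lyz1 at chr10:117292819-117293118, both minus strand) were the same at 201 of 300 places (67%), and shared an unbroken run of 86 bases, in capitals, from position -50 to position 36.
Lyz2: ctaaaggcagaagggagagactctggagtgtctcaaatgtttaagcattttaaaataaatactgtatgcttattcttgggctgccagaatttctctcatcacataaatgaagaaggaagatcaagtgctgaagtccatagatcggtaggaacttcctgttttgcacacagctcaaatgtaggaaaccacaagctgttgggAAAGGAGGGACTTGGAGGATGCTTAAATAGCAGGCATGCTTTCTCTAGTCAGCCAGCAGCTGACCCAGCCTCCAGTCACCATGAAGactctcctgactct
Lyz1: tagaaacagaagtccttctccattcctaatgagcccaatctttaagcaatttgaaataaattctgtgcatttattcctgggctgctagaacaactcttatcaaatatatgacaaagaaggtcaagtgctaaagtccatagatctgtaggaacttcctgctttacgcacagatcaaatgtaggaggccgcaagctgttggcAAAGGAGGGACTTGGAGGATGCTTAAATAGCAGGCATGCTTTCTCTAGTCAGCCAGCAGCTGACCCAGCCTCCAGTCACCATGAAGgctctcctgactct
The Lyz2 region held none of the 4 motifs. Among the other entries, the PU.1 letters occurred once each in the Lcn2, C1qb and Aif1 regions and 2 times in Cd68. C1qb also held 2 NF-kB matches that overlap each other on opposite strands, Lcn2, Cd68 and Lyz1 held 1 C/EBP match each, and Cx3cr1 held none of the 4 motifs.

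Serpina3n separated the induced cells from both other origins by the widest margin of any gene on the list. Its normalized log2 level was 10.49 on the induced GFP-high array and 9.96 on the induced GFP-medium array. It was 4.44, 4.42, 4.29 and 4.30 on the ES-derived arrays and 4.49, 4.51, 5.06 and 4.36 on the embryonic arrays. Both induced arrays lay above all 8 others, at the 97.6th (GFP-high) and 96.3rd (GFP-medium) percentile of their own probes, and the only other array on which the probe was detected was embryonic GFP-high replicate 2. In deposited intensity this was 1521 and 810 on the induced arrays, against -9.37 to 1.01 on the ES-derived and 0.393 to 21.8 on the embryonic arrays.

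The fitted difference for Serpina3n, induced minus ES-derived, was 5.86 ± 0.37 (log2, SE), and 4.11 when values under an array's lowest detected probe were raised to that level. Because no ES-derived array detected the probe, the fold has only a bound, at least 17.2-fold higher in induced cells. The bound was at least 43.2-fold without the dimmest array and at least 62.5-fold without the 3 dim arrays. Induced minus embryonic, the difference was 5.61 ± 0.37, and 5.18 with undetected values raised in the same way. Differences that involve induced cells are given as description, without a test, because those cells chose the list.

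Lyz2 was also highest on the induced arrays, but unlike Serpina3n it was detected on most embryonic arrays. Its probe read 8.36 (GFP-high) and 7.94 (GFP-medium) on the induced arrays, 4.30, 4.52, 4.29 and 4.36 on the ES-derived arrays, and 5.84, 4.33, 5.01 and 5.61 on the embryonic arrays. It was detected on 2 of 2 induced, 0 of 4 ES-derived and 3 of 4 embryonic arrays, and the induced values lay above all others. The embryonic array without detection was the dim GFP-medium replicate 1. Induced minus ES-derived, Lyz2 differed by 3.78 ± 0.47, at least 4.09-fold higher in induced cells and at least 9.11-fold without the dimmest array. Induced minus embryonic, it differed by 2.95 ± 0.47. The other 2 Lyz2 probes were detected on 0 arrays, so the values rest on 1 of 3 probes.

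The Lyz1 probe had the same order of origins. It read 8.84 and 8.26 on the induced arrays, 5.69, 4.70, 4.52 and 4.35 on the ES-derived arrays (detected on 0), and 6.85, 5.25, 6.08 and 6.24 on the embryonic arrays (detected on 3). Across the 10 arrays the Lyz1 and Lyz2 probes correlated at r = 0.956 (Pearson). Whether either probe binds the transcript of the other gene was not tested, so the 2 genes are not told apart here.

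**Figure D1:**
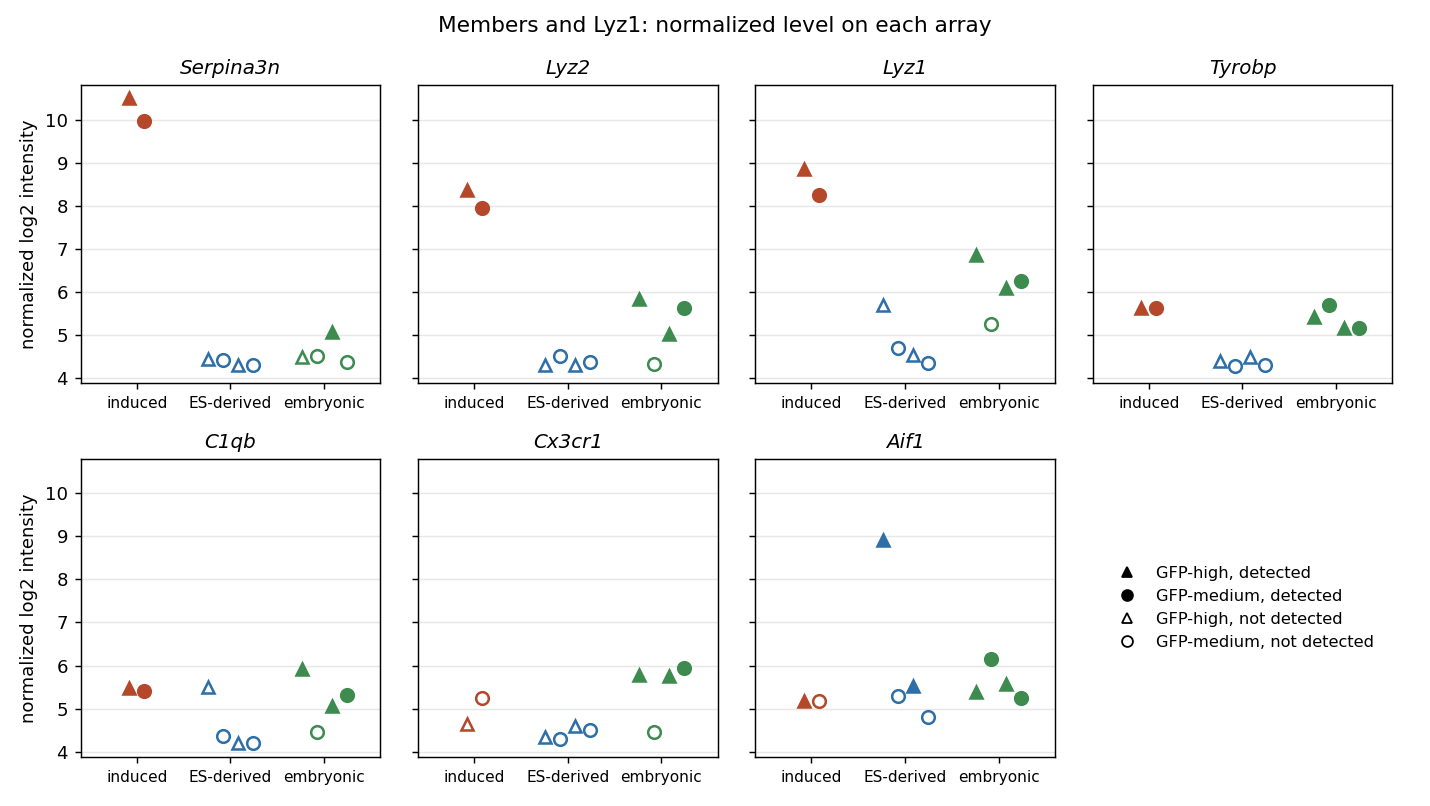
Normalized log2 intensity (vertical axis) of the 6 tested members and of Lyz1 on each array, by origin (horizontal axis). Triangles are GFP-high and circles GFP-medium arrays, filled where the probe was detected; Serpina3n reads 10.49 and 9.96 on the induced arrays and at most 5.06 elsewhere, and the Aif1 point at 8.93 is the dimmest array.

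Tyrobp, C1qb and Cx3cr1, which mark microglia and other macrophages, did not share the wide margin of Serpina3n and Lyz2. Tyrobp, the signalling adaptor DAP12, read 5.62 on both induced arrays. It read 4.39, 4.28, 4.49 and 4.30 on the ES-derived arrays and 5.42, 5.69, 5.15 and 5.16 on the embryonic arrays. Detection held on both induced and all 4 embryonic arrays and on 0 ES-derived arrays, and its induced values lay within the embryonic range because of the dim embryonic array at 5.69. Without the 3 dim arrays the groups did not overlap, at a renormalized mean of 6.06 on induced against 5.56 on embryonic arrays. The fitted Tyrobp difference was 0.27 ± 0.36, induced minus embryonic, and 1.26 ± 0.36, induced minus ES-derived. For the latter no bound above 1 could be set with the dimmest array included (at least 1.32-fold higher without it).

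C1qb, which encodes a chain of the complement recognition molecule C1q, read 5.47 and 5.41 on the induced arrays. It read 5.50, 4.36, 4.19 and 4.19 on the ES-derived arrays and 5.93, 4.45, 5.06 and 5.30 on the embryonic arrays. It was detected on both induced and 3 of 4 embryonic arrays and on 0 of the ES-derived arrays. The ES-derived value of 5.50 came from the dimmest array, where the detection p was 0.182. The induced values lay within the embryonic range, with a difference of 0.26 ± 0.50, induced minus embryonic.

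Cx3cr1, the fractalkine receptor of microglia, was detected on the embryonic arrays alone. It read 4.65 and 5.24 on the induced arrays, 4.33, 4.30, 4.59 and 4.51 on the ES-derived arrays, and 5.79, 4.45, 5.77 and 5.94 on the embryonic arrays. It was detected on 0 induced, 0 ES-derived and 3 embryonic arrays. The 3 embryonic arrays with detection were above every induced and ES-derived array, while the dim embryonic array at 4.45 fell among them. The induced GFP-medium array came close to detection, with a detection p of 0.0138. Induced minus embryonic, the difference was -0.54 ± 0.49.

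Aif1, which encodes the calcium-binding protein IBA1 of microglia, had no clear order of origins. It read 5.17 and 5.18 on the induced arrays, 8.93, 5.30, 5.53 and 4.81 on the ES-derived arrays, and 5.40, 6.16, 5.58 and 5.24 on the embryonic arrays. It was detected on 1 of 2 induced, 2 of 4 ES-derived and 4 of 4 embryonic arrays. The value of 8.93 belonged to the dimmest array, where the deposited intensity was only 11.4. Of the 2 other Aif1 probes, one was detected on 2 embryonic arrays and the other on 1, and neither on an induced or ES-derived array.

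Lcn2 was detected on 0 of 10 arrays, with a lowest detection p of 0.154. C1qa, another chain of C1q, was detected on embryonic GFP-high replicate 1 alone (detection p 0.00521). Neither passed the filter, and their levels were not detectable on the other arrays rather than shown to be absent.

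**Figure D2:**
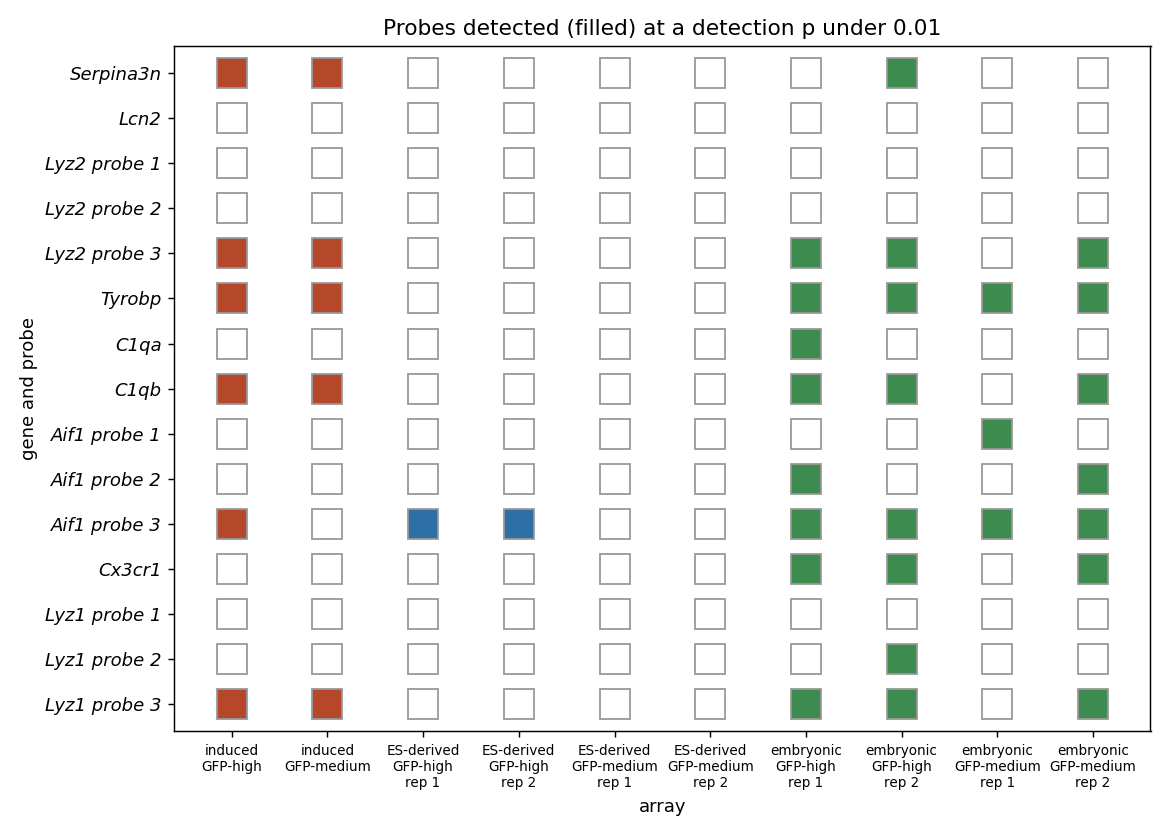
Detection of each probe of the members and of Lyz1 (rows) on each of the 10 arrays (columns); a filled square is a detection p under 0.01, coloured by origin. Serpina3n is detected on both induced arrays and 1 embryonic array, Cx3cr1 on embryonic arrays alone, and Aif1 is the only gene with squares filled on ES-derived arrays.

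Set side by side, the tested genes fell into several detection patterns. Serpina3n, Lyz2, Tyrobp and C1qb were detected on both induced arrays and on 0 ES-derived arrays; 2.33% of all features had this pattern. Lyz2, Tyrobp, C1qb and Cx3cr1 were detected on at least 3 embryonic and 0 ES-derived arrays, a pattern of 4.61% of features. These counts cover only members that passed the detection filter, and the first pattern includes the arrays that chose the list. Among the 8 genes with probes, 5 (GFP-high) and 4 (GFP-medium) were detected on the induced arrays, 1, 0, 1 and 0 on the ES-derived arrays, and 6, 2, 6 and 5 on the embryonic arrays. Induced and embryonic arrays did not overlap for 3 of the 6 tested members, as for 40.3% of all features. Serpina3n and Lyz2 were higher on the induced arrays and Aif1 was lower. Induced and ES-derived arrays did not overlap for 4 of the 6 (Serpina3n, Lyz2, Tyrobp and Cx3cr1), as for 21.3% of features. All 4 were higher in value on the induced arrays, but Cx3cr1 was detected on 0 arrays of either group. The median difference of the 6 tested members was 0.26, induced minus embryonic, against -0.02 over all features. These counts and this median include Serpina3n and Lyz2, which were chosen on these levels, so they are descriptions only.

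Levels between ES-derived and embryonic cells did not enter the choice of the list and were tested with limma, with p-values adjusted over all 9679 features. Of the 6 tested members 0 were called at an adjusted p under 0.05, against 0.899% of all features, and 2 (Tyrobp and Cx3cr1) had an unadjusted p under 0.05, against 11.1% of features. Values for 5 of the 6 were lower in ES-derived cells, with a median difference of -0.73 over the 6, against -0.13 over all features. These 5 were detected on 0 ES-derived arrays, and with the dimmest array included no bound could be set for any of them: with undetected values raised to each array's lowest detected level their differences were positive, 0.32 to 1.07. Tyrobp differed by -0.99 ± 0.29 (limma adjusted p = 0.199), and it was the 1 member whose ES-derived and embryonic arrays did not overlap, which 7.3% of all features also showed. C1qb did not overlap either once the dimmest array was left out, and without the 3 dim arrays 5 of the 6 (all except Aif1) did not. The share of all features under those settings was not computed. Groups of fewer arrays fail to overlap more easily, so the 7.3% is no yardstick for these counts and no conclusion is drawn from them. Cx3cr1 differed by -1.05 ± 0.40 (limma adjusted p = 0.351).

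The remaining members gave -0.83 ± 0.38 for Lyz2 (limma adjusted p = 0.467), -0.62 ± 0.41 for C1qb (0.627), -0.24 ± 0.30 for Serpina3n (0.814) and 0.55 ± 0.76 for Aif1 (0.834). The Aif1 value turned to -0.41 ± 0.37 without the dimmest array. Without the 3 dim arrays Cx3cr1 differed by -1.73 ± 0.35, at least 1.92-fold lower in ES-derived cells. Cx3cr1 passed the detection filter through embryonic arrays alone, so its difference from ES-derived cells is a description and supports no call. In bulk arrays fewer cells of a type and less RNA per cell cannot be told apart.

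The sorting gate did not separate the members at a detectable level. GFP-high minus GFP-medium, 0 of the 6 members and 0 of 9679 features (0%) were called with limma, and 0 members had an unadjusted p under 0.05, against 2.08% of features. The member differences ranged from 0.01 ± 0.26 for Tyrobp to 0.78 ± 0.68 for Aif1. All 6 were positive on the 10 arrays, but leaving out 1 array turned Lyz2 (to -0.03), Tyrobp (to -0.05) and Cx3cr1 (to -0.17) and took Aif1 to 0.049. Serpina3n differed by 0.25 ± 0.27 and Lyz2 by 0.21 ± 0.34. No member and 0% of features were called for a change of the gate difference with origin, GFP-high minus GFP-medium in ES-derived minus the same in embryonic cells. Aif1 had the widest such value, 2.39 ± 1.46 (limma adjusted p = 0.999, unadjusted p = 0.142, the lowest of the members), which includes the dimmest array.

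**Figure D3:**
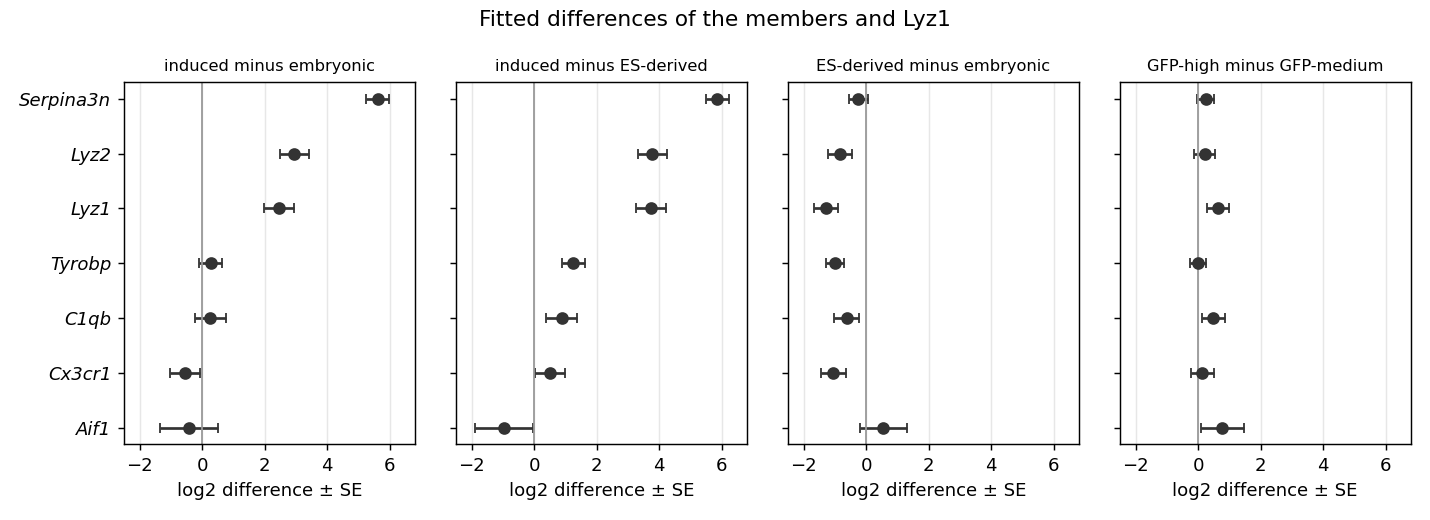
Fitted log2 differences (horizontal axis) of the 6 tested members and Lyz1 in 4 comparisons, one panel each; bars are ± 1 SE from the limma fit. Serpina3n, Lyz2 and Lyz1 stand to the right in both comparisons of induced cells, while members lie between -1.05 and 0.55 for ES-derived minus embryonic and between 0.01 and 0.78 for the gate.

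A wider list of macrophage and microglia genes was read beside the members, with 25 of its 28 genes on the platform and 17 tested. On the induced arrays 8 and 8 of the 25 were detected (7 and 7 of 24 without Lyz1), on the ES-derived arrays 0, 3, 1 and 3, and on the embryonic arrays 18, 4, 10 and 15. The summed normalized level of the 17 tested genes was 1191 to 1396 on induced arrays, 429 to 937 on ES-derived arrays and 1087 to 3407 on embryonic arrays. These sums include Lyz1. Without it, an alternative chosen after seeing the data, the sums were 732 (GFP-high) and 1090 (GFP-medium) on induced arrays. They were 406 to 911 on ES-derived arrays and 1049 to 3292 on embryonic arrays. The induced GFP-high array thus lay below all embryonic arrays and below 1 ES-derived array, the dim GFP-medium replicate 1 (911). The embryonic sum of 1049 was also from a dim array. On the arrays that were not dim, the sums were 406 and 489 (ES-derived) and 1132 to 3292 (embryonic). Both induced sums lay between those. Laptm5 was the brightest of these genes on average over the 10 arrays. It weighed in the sums, with log2 means of 7.42 (induced), 6.26 (ES-derived) and 9.44 (embryonic). Ptprc (the leukocyte antigen CD45), Itgam (CD11b), Spi1 (the transcription factor PU.1), Cybb and Msr1 were detected on 0 of 10 arrays.

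Of the 25 genes, 10 (40%) were detected on at least 1 embryonic array and on neither induced array, against 14.9% of all named genes. They were C1qc, Ccl3, Ccl4, Cd14, Cd53, Fcgr3, Itgb2, Mrc1, P2ry12 and Trem2, which include the microglial receptors P2ry12 and Trem2. In the other direction, the Fc receptor gamma chain Fcer1g was detected on the 2 induced arrays and on 0 of the 8 others; it was chosen after its values were seen. Its level was 5.33 to 5.67 on induced arrays, 4.33 to 4.52 on ES-derived arrays and 4.23 to 4.61 on embryonic arrays.

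Lyz1 is left out of the tests with induced cells, because its probe is not told apart from that of Lyz2. Between induced and embryonic cells 0 of the 16 other tested genes were called by limma, against 1.27% of all features, and 4 had an unadjusted p under 0.05, against 12.6%. Their median difference was -0.33, against -0.02 over all features. The probes used for Fcgr3, C1qc, Adgre1, Trem2, P2ry12, Mrc1, Cd53 and Ccl4 passed the detection filter through embryonic arrays alone. That for Fcer1g passed through induced arrays alone. The filter thus partly set the counts and medians of both comparisons with induced cells, and no conclusion is drawn from them. Between induced and ES-derived cells 0 of the 16 were called, against 0.806% of features, and 3 had an unadjusted p under 0.05, against 11.9%, with a median of 0.25. ES-derived minus embryonic, 1 of the 17 tested genes was called lower, against 0.816% of features. It was the chemokine Ccl4, by -3.20 ± 0.58 (limma adjusted p = 0.0408), at least 2.68-fold. That call was lost in 17 of 23 alternative settings, among them 8 of the 10 that leave out 1 array. Ccl4 was detected on 0 induced, 0 ES-derived and 3 embryonic arrays. It passed the filter through embryonic arrays alone, so its difference is a description and supports no call. The other genes named above that passed through embryonic arrays alone are also among the 17. The filter therefore partly set the median and direction of the 17, and no conclusion is drawn from them. The median of the 17 was -0.48, and 15 of the 17 values were lower in ES-derived cells. Without the 3 dim arrays 5 genes of the list were called lower there (Adgre1, Ccl4, Ctss, Laptm5 and Lyz1), against 2.74% of features. The same 5 were called lower with array weights, against 3.91% of features, and 0 to 2 genes of the list in the other settings. The Adgre1 probe used was, like that of Ccl4, detected on embryonic arrays alone, so its difference supports no call either.

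**Figure D4:**
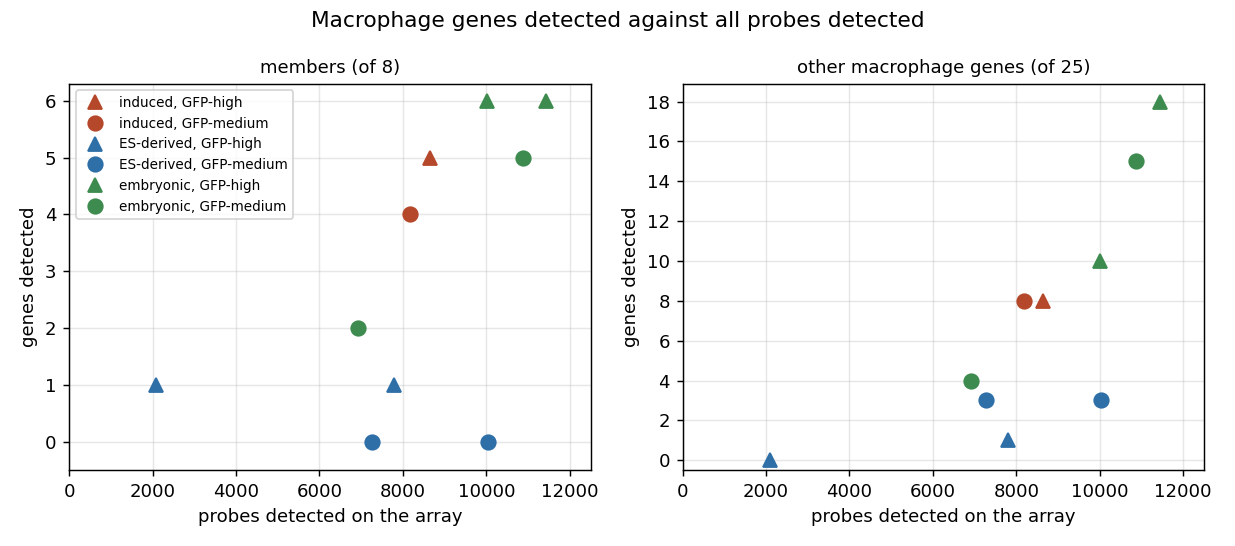
Number of genes detected (vertical axis) against all probes detected on the array (horizontal axis), for the 8 members with probes (left) and the 25 other macrophage genes (right); each point is 1 array. The embryonic array with the fewest detected probes shows the fewest macrophage genes of its origin (2 of 8 and 4 of 25) and the others up to 6 of 8 and 18 of 25, while ES-derived arrays stay at 0 or 1 of 8 and 0 to 3 of 25.

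Among the embryonic arrays, more of the 25 macrophage genes were detected where an array detected more probes in all. The embryonic array with 6921 detected probes showed 4 of the 25 genes, and that with 11441 showed 18. The ES-derived GFP-medium replicate 2 array detected 10041 probes, more than either induced array (8646 and 8182), and showed 3 of the 25 genes and 0 of the 8 members. The induced arrays showed 8 of 25 and 4 or 5 of 8. The part that array brightness had in these counts was not tested.

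Of 22 lipocalin, acute-phase and reactive astrocyte genes on the platform, 8 were detected on at least 1 induced array and 4 (C4b, Cd44, S100a10 and Timp1) on both, and 10 were tested. Between induced and ES-derived cells 0 were called by limma, against 0.806% of features, and 3 had an unadjusted p under 0.05, against 11.9%. These 3, named after their values were seen, were higher in value in induced cells: S100a10 by 3.21 ± 1.16, the hyaluronan receptor Cd44 by 1.28 ± 0.42 and the complement gene C4b by 1.07 ± 0.46 (limma adjusted p = 0.297, 0.254 and 0.401). The Cd44 value rests on 1 of 6 probes. That probe was detected on 0 ES-derived arrays, while at least 1 Cd44 probe was detected on 3 of the 4. By limma, between induced and embryonic cells 0 of the 10 tested genes were called higher and 2 lower, against 0.444% and 0.827% of features. The 2 were Emp1 (at least 12.5-fold) and Ptx3 (at least 6.08-fold). Both were also called lower in ES-derived than in embryonic cells, against 0.816% of features. Ptx3 was detected on 0 induced, 0 ES-derived and 4 embryonic arrays. It passed the filter through embryonic arrays alone, so its differences are descriptions and support no call. Saa3, an acute-phase serum amyloid gene, was detected on 1 induced array and on no other. Of the 22, 8 were detected on 0 arrays (Aspg, C4a, Cxcl10, Gbp2, Gfap, Orm1, Psmb8 and Steap4). Of the 16 Serpina genes on the platform, 2 were tested, Serpina3n and Serpina1a, and Serpina1a was detected on 0 induced, 0 ES-derived and 2 embryonic arrays.

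Among 10 tested genes of the STAT3 and NF-kB pathways, 1 was called between induced and ES-derived cells, against 0.806% of features. Stat3 itself, a transcription factor of the acute-phase response, was higher in induced cells by 2.14 ± 0.40 (limma adjusted p = 0.0487). That value is close to the threshold. The number of features called in this comparison ran from 0 to 1581 over the alternative settings, and the Stat3 call is not given for them. Against embryonic cells it differed by 1.70 ± 0.40 (limma adjusted p = 0.0879). The STAT target Socs3 differed by 0.12 ± 0.63, induced minus ES-derived, and was not called. Of 5 tested complement genes and 3 tested neutrophil granule genes, 0 were called by limma in any comparison of origins, where 0.806% to 1.27% of features were. At an unadjusted p under 0.05 there was 1 complement gene, C4b, between induced and ES-derived cells and 0 otherwise. Induced minus ES-derived, the 3 complement genes with the highest mean differed by 0.39 ± 0.64 (Cd59a), 0.43 ± 0.78 (Serping1) and 1.07 ± 0.46 (C4b), and the neutrophil genes by -0.70 ± 0.63 (Mmp9), 0.64 ± 0.44 (Prtn3) and -0.10 ± 0.39 (Elane).

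Markers of other cell types also moved with origin. The 4 erythroid markers were detected on 0 induced and 0 ES-derived arrays and 3 or 4 of them on every embryonic array, with summed levels of 83.5 to 109.6 on induced, 79.9 to 118 on ES-derived and 872 to 1960 on embryonic arrays. Of 7 fibroblast markers, 1 to 3 were detected on induced arrays, 0 to 4 on ES-derived arrays and 4 to 6 on embryonic arrays. The summed levels of the 6 tested were 251 to 436 on induced, 152 to 669 on ES-derived and 2022 to 3740 on embryonic arrays. Between induced and embryonic cells 5 of the 6 were lower in value in induced cells, and Thy1 was higher. Thy1 read 7.15 to 8.13 on induced, 4.32 to 4.52 on ES-derived and 4.35 to 5.23 on embryonic arrays. It thus weighed heavily in the induced sums. The summed level of the 3 tested astrocyte markers was 174 to 183 on induced, 85.7 to 278 on ES-derived and 772 to 1054 on embryonic arrays. The higher embryonic sums came from Slc1a3, with log2 means of 6.65 (induced), 6.06 (ES-derived) and 9.74 (embryonic). Slc1a2 was lowest on embryonic arrays (5.73, 6.18 and 5.18 in the same order), and Aldh1l1 differed little (4.59, 4.75 and 4.64). The part of these other cells in the macrophage gene levels was not tested.

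The genes whose levels followed Serpina3n most closely over the 10 arrays were Ntsr2 (r = 0.993), Kcnip3 (0.989), Mnx1 (0.985), Tesc (0.985) and Thy1 (0.984). All were detected on both induced arrays and on 0 ES-derived arrays. These correlations rest on the 2 induced arrays: over the other 8 arrays r was 0.310 for Ntsr2, 0.673 for Kcnip3, 0.296 for Mnx1, -0.164 for Tesc and 0.856 for Thy1. For Lyz2 the closest were Sp4 (0.984), Sh3rf3 (0.969), Cckbr (0.969), Nbl1 (0.965) and Pvalb (0.958), and here r over the other 8 arrays was 0.637 to 0.968. Lyz2 also correlated with Serpina3n at 0.935, with Tyrobp at 0.671, with C1qb at 0.60, with Cx3cr1 at 0.301 and with Aif1 at -0.350. The points share arrays and array brightness, and many lie near the detection limit, so these are descriptions only.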

How the data were processed

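Per the file headers, each probe and array has a deposited intensity (linear, not normalized) and a detection p-value; the submitters' processing notes name BeadStudio, with no version. Values below 0 show that background had been subtracted before deposit. The authors' normalized intensity table was used as an alternative; how it was normalized is not stated in the labels or headers. The intensities were corrected with normexp from the detection p-values (offset 16), brought to log2 and quantile normalized with limma 3.58.1 in R 4.3.3. Platform annotation, which can be old, gave 23978 probes 1 symbol, 0 several and 1719 none.

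A gene with several kept probes was represented by its brightest on average. One additive limma fit of origin and gate (two-sided, Benjamini-Hochberg, 10 arrays, 6 residual degrees of freedom) gave the differences; the gate by origin contrast came from 6 group means (4 degrees of freedom). The script was tested on simulated data. A bound ("at least") sets the brighter group's mean against the dimmer group's mean of, per array, the higher of the probe's value and the lowest detected value. Precision is limited by the number of arrays. Summed levels are on the linear scale.

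The members and lists were chosen with earlier results of these data known. Genes were named by rule: the 10 members, the 5 genes closest to Serpina3n and to Lyz2 by correlation, and up to 4 called genes per list, or 3 values where none was called. The 3 values per list are given for induced minus ES-derived. Genes named from detection or an unadjusted p alone, and Socs3, were chosen after their values were seen.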

Additional observations from a re-analysis of the deposited data

Results flagged for a closer look

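In 2 of 14 gene and origin groups of 4 arrays, 1 array stood apart by Dixon's gap-to-range ratio, above the critical value for that size, where chance gives about 5% of groups. C1qb read 5.50 on ES-derived GFP-high replicate 1, against 4.19 to 4.36 on the other ES-derived arrays; the probe was not detected there, and this was the dimmest array. Cx3cr1 read 4.45 on embryonic GFP-medium replicate 1, against 5.77 to 5.94 on the other embryonic arrays; the probe was not detected there, and this array had the lowest mean intensity of the 4.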

How the results depend on the processing

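The sizes of the induced differences kept their direction for Serpina3n (4.48 to 7.51, induced minus embryonic, and 4.59 to 7.92, induced minus ES-derived) and for Lyz2 (2.22 to 4.0 and 2.67 to 5.87) under all alternatives run. The counts of features called did not hold. Induced minus embryonic, 123 were called, against 195 with no further background correction, 5 with median scaling, 3135 with array weights, 1616 without the 3 dim arrays and 0 with gate means as replicates, and 10 to 648 when each array was left out in turn (10 without the induced GFP-high array, 648 without the dimmest). Induced minus ES-derived, 78 were called, against 129, 4, 1581, 1093 and 0 under the same settings and 1 to 404 with 1 array left out (1 without either induced array, 404 without the dimmest). ES-derived minus embryonic, 87 were called, against 6 with median scaling, 550 with array weights, 399 without the 3 dim arrays and 0 with gate means, and 36 to 275 with 1 array left out (275 without the dimmest). The causes were not tested. With the replicate block 37 were called, against 55 on the same 8 arrays without it (an alternative chosen after seeing the data); deviations of same-numbered arrays correlated at -0.0905 to 0.0994, so the numbers do not pair the arrays. The block changed no member's call. The gate gave 0 calls throughout where it could be estimated (not with gate means), and the gate by origin contrast gave 0, with 0 to 1411 when 1 array was left out (1411 without ES-derived GFP-high replicate 2, where Aif1 was called at 3.89, limma adjusted p = 0.0170).

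Among members, Cx3cr1 passed the threshold for ES-derived minus embryonic without the 3 dim arrays (limma adjusted p = 0.0381) and with array weights (0.0396) and in no other of its alternatives, where the adjusted p ran to 0.766; it passed the filter through embryonic arrays alone. Median scaling moved the median of all features to -0.44, induced minus embryonic, and to -0.58, ES-derived minus embryonic. It turned the induced minus embryonic values of Tyrobp to -0.27 and of C1qb to -0.56, and C1qb also turned with no further background correction (-0.21). Chip as a block was not run, because the headers name no chips. Every member has arrays on which it was not detected, so differences against those arrays are limited by signal over background.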
